A study of Gallus gallus with 31 samples.

Results

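Cardiac fat was compared with abdominal fat in male Ross birds of the trial labelled Fall 13, with 4 libraries from each depot. Ross is a commercial broiler chicken line. The 8 libraries were chosen by their labels, as abdominal libraries 1195, 1196, 1197 and 1198 and cardiac libraries 1204, 1205, 1206 and 1207, out of 31 libraries in the series. The titles call the cardiac tissue heart fat and mark every bird as a control, and all birds were sampled at day 42 after hatching. Polyadenylated RNA was sequenced from frozen whole tissue, so a value is an average over all cells in the piece. The other libraries that served for comparison were 8 from Ross birds of the Fall 12 trial, 4 per depot, and 15 from the Illinois line in Fall 13, of which 7 were abdominal and 8 cardiac; these were also from male control birds of the same age. The labels do not say whether the abdominal and the cardiac library with the same header number came from 1 bird. Nor do they say that the 4 libraries of a depot came from separate birds, although the header numbers within a depot all differ. If the birds were not separate, the p-values measure only the spread between these libraries.

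White fat of birds stores triglyceride, which reaches the cell largely from the liver. FABP4, the fatty acid carrier of the fat cell, and PPARG, the nuclear receptor that drives fat cell formation, mark the tissue in any depot. Depots also differ in the embryonic tissue they formed in, and connective tissue cells of adult depots often keep transcription factors of that region. In chick and mouse embryos TBX18 marks the epicardium, the outer cell layer of the heart, TBX20 acts in the developing heart, and PITX1 acts in the hindlimb and the caudal body wall.

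Expression values were taken as FPKM, the unit that the processing tool Cufflinks writes and the table does not name, a fragment number corrected for the length of the transcript and the size of the library, for 564 genes, of which 390 reached at least 1 FPKM in at least 4 of the 8 libraries and were tested. Each depot has 4 libraries, so a gene could pass this filter through 1 depot alone, as TBX18, TBX20, CHRDL1, SEMA3C, PITX1 and HDAC1 did. The share called in a list that holds such genes is therefore no separate evidence about the list. Fold changes are cardiac minus abdominal on log2(FPKM + 1), which understates the change of genes near 1 FPKM. A gene was called when the limma p-value, adjusted by the Benjamini-Hochberg method over the 390 genes, was below 0.05. The read totals are not known. Steps in the lowest values gave a relative depth of 0.685 to 0.984 in the abdominal and 1.08 to 1.72 in the cardiac libraries, which did not overlap, and 1 FPKM then stood for about 20 fragments, a figure that may be off by a whole factor. Library numbers did not overlap between the depots either, so a difference in library preparation cannot be told apart from the depot. Correlations of log2(FPKM + 1) ranged from 0.918 to 0.944 among the abdominal, 0.845 to 0.930 among the cardiac and 0.777 to 0.903 between the depots. The first principal component held 41.0% of the variance and separated the depots, with cardiac library 1206 farthest out.

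Both depots carried the marks of fat. FABP4 stood at 13607, 15304, 14045 and 13782 FPKM in the abdominal libraries 1195 to 1198 and at 25919, 25932, 8570 and 17828 FPKM in the cardiac libraries 1204 to 1207. The abdominal values lay close together, while cardiac library 1206 lay below all of them and the other three cardiac libraries above. The log2 fold change was 0.34 ± 0.32 (SE, n = 4 and 4) and was not called (limma adjusted p = 0.52). Without cardiac library 1206 it was 0.69 and was called (limma adjusted p = 0.027). FABP4 took 35.8% ± 1.20 (SD, n = 4) of the FPKM summed over the 564 genes in abdominal and 37.6% ± 11.6 (SD, n = 4) in cardiac fat. That difference of 1.83 percentage points was within the spread (two-sided exact permutation p = 0.8, where the smallest possible for 4 against 4 is 0.0286). It turned to -1.55 points without cardiac library 1205 and rose to 7.37 points without cardiac library 1206 (two-sided exact permutation p = 0.057).

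PPARG was at 81.3, 89.5, 65.9 and 73.2 FPKM in abdominal and at 67.4, 59.5, 28.2 and 41.2 FPKM in cardiac fat. In each header number the cardiac value was the lower, although the groups overlapped. The log2 fold change of -0.71 ± 0.28 (SE) was not called (limma adjusted p = 0.11), but it was when libraries were scaled to the FPKM sum without FABP4. CAV1, the main protein of caveolae and abundant in fat cells, differed by 0.06 (95% interval -0.59 to 0.72). With FABP4 and CAV1, DBI made up the 3 tested fat cell identity genes. DBI had a negative fold change and was not called, but it was called lower under quantile normalization and with scaling to the sum without FABP4.

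Of the 390 genes tested, 55 were called (14.1%): 40 were higher (10.3%) and 15 lower (3.85%) in cardiac fat. These shares are the background for the calls in every list below. The 4 cardiac libraries lay above all 4 abdominal ones in 39 of the 40 higher genes and below them in 13 of the 15 lower genes, against 17.7% and 4.87% of all genes tested. The genes were called on these same values and count among all genes tested, so this separation is no further evidence for the calls. The median log2 fold change over all tested genes was 0.18 rather than 0. Under quantile normalization the split was 31 higher and 27 lower, with a median of -0.04, and scaling to the sum without FABP4 gave 29 and 27, with a median of -0.07. No called gene changed sign in any fit that was run. In all 8 fits that left out 1 library, 30 of the 55 remained called, 25 of them higher and 5 lower. Cardiac library 1206 held the highest cardiac value in 26 of the 40 higher genes, against 30.5% of all genes tested, and library 1205 the lowest in 23, against 23.6%. Over all genes tested, library 1204 was most often the highest, in 43.3%.

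**Figure D1:**
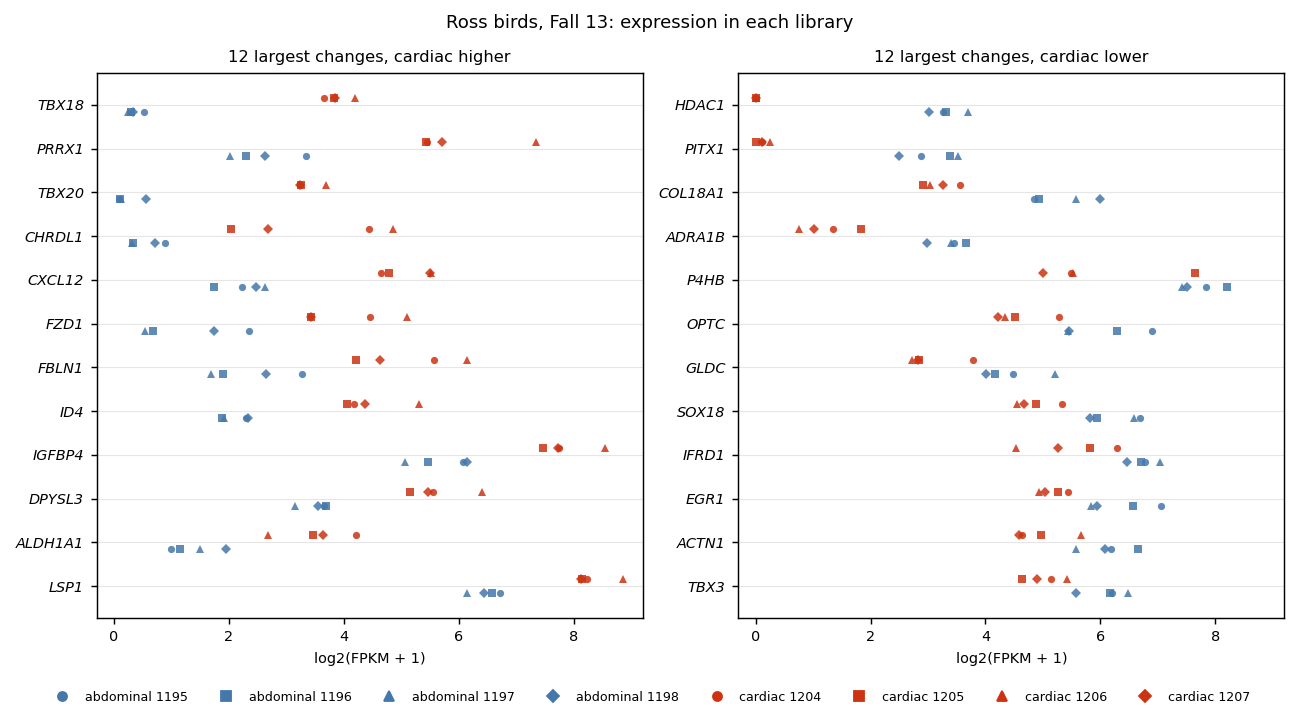
Expression as log2(FPKM + 1), horizontal axis, in each of the 8 Ross Fall 13 libraries for the 12 largest called changes in each direction; blue points are abdominal, red points cardiac, and a marker shape stands for 1 library of each depot. The red points lie right of the blue ones for every gene of the left panel, and left of them on the right except in P4HB, where cardiac library 1205 reached 198 FPKM, and ACTN1, where library 1206 reached 49.9; the HDAC1 points at 0 are values listed at 0.001 FPKM.

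T-box factors are transcription factors that pattern the heart, limbs and body wall, and TBX18 had the largest positive fold change of all called genes. TBX18 and TBX20 rose, TBX3 fell, and TBX2 and TBX5 were not called. So 2 of the 5 tested members were higher and 1 lower, against 10.3% and 3.85% of all tested genes. TBX18 and TBX20 passed the filter through their cardiac libraries alone, so the share called higher is no evidence about the list. The median was 1.01 against 0.18 over all tested genes. TBX18 was at 0.444, 0.231, 0.182 and 0.254 FPKM in abdominal and at 11.6, 13.3, 17.3 and 13.4 FPKM in cardiac fat. The ratio of the means was 50.0, and the log2 fold change 3.53 ± 0.23 (SE; limma adjusted p = 1.04e-05). TBX20 was at 0.0688, 0.0804, 0.0844 and 0.471 FPKM in abdominal and at 8.40, 8.49, 11.9 and 8.46 FPKM in cardiac fat. No abdominal library reached 1 FPKM of either gene, while every cardiac library was above 8 FPKM. By the estimate above 1 FPKM stood for about 20 fragments, so the abdominal values rest on few. For TBX20 the log2 fold change was 3.13 ± 0.24 (SE; limma adjusted p = 1.70e-05).

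TBX3, a repressor active in limb and heart development, went the other way, with 72.3, 71.0, 88.2 and 46.5 FPKM in abdominal and 34.2, 23.9, 41.9 and 28.6 FPKM in cardiac fat. Its log2 fold change was -1.08 ± 0.26 (SE; limma adjusted p = 0.0215), and the call was lost without library 1195, 1196, 1197 or 1207 (limma adjusted p = 0.053 to 0.062) and in the fit of all 31 libraries (limma adjusted p = 0.077). TBX5, which acts in the developing heart and forelimb, was at 1.38 to 3.65 FPKM in abdominal and 2.57 to 10.9 FPKM in cardiac fat, and its log2 fold change of 1.01 was not called (limma adjusted p = 0.10). TBX2, a close relative of TBX3, differed by -0.59 (limma adjusted p = 0.32).

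TBX20 also belongs to the heart muscle genes, so the other genes of that tissue are given beside it. Of 9 listed heart muscle genes, 6 were tested, and TBX20 was the only one called. CASQ2, the calcium store protein of the heart muscle cell, was at 0.672, 5.10, 3.57 and 3.12 FPKM in abdominal and 0.834, 3.59, 2.01 and 0.812 FPKM in cardiac fat (log2 fold change -0.52, limma adjusted p = 0.47). MYH7B, a myosin heavy chain of striated muscle, was at 0.261, 2.57, 1.30 and 6.13 FPKM in abdominal and 0.031, 18.8, 2.82 and 0.128 FPKM in cardiac fat. Only cardiac library 1205 stood above the abdominal libraries in MYH7B. The summed FPKM of the 6 heart muscle genes other than TBX5, TBX20 and GJA1 was 6.78 to 13.6 in abdominal and 2.55 to 28.2 in cardiac fat. It was 1.165 to 293 in Fall 12 and 2.08 to 230 in Illinois cardiac fat, so some libraries there were as low.

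Genes of the epicardium and mesothelium were represented by 3 members, of which TBX18 and ALDH1A1 rose and RARRES1 was not called (0.66, limma adjusted p = 0.23). Over all tested genes, 10.3% were called higher. TBX18 was already counted among the T-box factors, so the lists are not independent. ALDH1A1, an enzyme that makes retinoic acid, was at 0.981, 1.22, 1.81 and 2.84 FPKM in abdominal and 17.5, 10.1, 5.4 and 11.4 FPKM in cardiac fat. Every cardiac library held more ALDH1A1 than any abdominal one, and the log2 fold change was 2.10 ± 0.36 (SE; limma adjusted p = 0.00366). The summed FPKM of the 3 genes, most of it RARRES1, was 105 to 316 in abdominal and 265 to 481 in cardiac fat. In whole tissue, more cells of a type and more RNA per cell cannot be told apart, here or in the other lists.

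Limb and mesenchyme patterning factors gave 1 gene in each direction among 4 tested. PRRX1, a homeobox factor of limb and connective tissue mesenchyme, was at 9.17, 3.90, 3.08 and 5.20 FPKM in abdominal and 42.7, 42.2, 162 and 51.2 FPKM in cardiac fat. Library 1206 stood far above the other three, for a log2 fold change of 3.41 ± 0.45 (SE; limma adjusted p = 0.000991). PITX1 was at 6.37, 9.37, 10.5 and 4.63 FPKM in abdominal fat. In cardiac fat it was at 0.0757, 0.192 and 0.0760 FPKM in libraries 1204, 1206 and 1207, and library 1205 listed it at 0.001, the lowest value the table uses. PITX1 had a log2 fold change of -2.95 ± 0.28 (SE; limma adjusted p = 8.66e-05), and no cardiac library reached even 1 FPKM. The other two tested members, MEOX2 and SUFU, were not called (-0.34 and 0.34, limma adjusted p = 0.42 and 0.55).

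In the Wnt pathway, 2 of 11 tested genes were called, both higher, against 10.3% of all tested genes called higher. A positive fold change was found in 10 of 11, with a median of 0.37, against 239 of 390 and 0.18 over all tested genes. Quantile normalization gave 9 positive and a median of 0.14, and scaling to the sum without FABP4 gave 8 and 0.13. FZD1, a Wnt receptor, was at 4.07, 0.602, 0.453 and 2.34 FPKM in abdominal and 20.8, 9.80, 33.4 and 9.73 FPKM in cardiac fat. The groups did not overlap, and the log2 fold change was 2.78 ± 0.50 (SE; limma adjusted p = 0.00511). AXIN2, a feedback inhibitor that Wnt signalling induces, was at 0.604, 1.21, 0.447 and 1.08 FPKM in abdominal and 5.87, 2.04, 6.02 and 2.29 FPKM in cardiac fat. Its log2 fold change was 1.37 ± 0.35 (SE; limma adjusted p = 0.0252), and the call was lost without library 1195, 1197, 1204 or 1206 (limma adjusted p = 0.051 to 0.067). Libraries 1204 and 1206 were the 2 highest cardiac libraries for FZD1 and for AXIN2. Among the other receptors, FZD2 and FZD7 differed by 0.91 and 0.84 (limma adjusted p = 0.086 and 0.083).

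The BMP and TGF-beta pathway had 2 of 12 tested genes called, again higher, against 10.3% of all tested genes called higher. The median of 0.17 was close to that of all genes, 0.18. ID4, a helix-loop-helix inhibitor that BMP signalling can induce, was at 3.92, 2.68, 2.77 and 4.05 FPKM in abdominal and 17.0, 15.6, 38.5 and 19.6 FPKM in cardiac fat. Its log2 fold change was 2.37 ± 0.30 (SE; limma adjusted p = 0.000702), whereas its relatives ID1 and ID3 were not called (-0.47 and 0.35). SMAD3, a transducer of TGF-beta signals, was called at 0.68 ± 0.19 (SE; limma adjusted p = 0.039), from 8.90 to 10.4 FPKM in abdominal and 13.9 to 20.8 FPKM in cardiac fat. That call was lost under each of the 3 other scalings and without any one library except 1205 (limma adjusted p = 0.063 to 0.095).

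CHRDL1, a secreted BMP antagonist of the chordin family outside that list, was at 0.847, 0.259, 0.250 and 0.649 FPKM in abdominal and 20.6, 3.10, 27.8 and 5.43 FPKM in cardiac fat. The cardiac values fell into a higher pair, libraries 1204 and 1206, and a lower pair, both above every abdominal library. The log2 fold change was 2.93 ± 0.57 (SE; limma adjusted p = 0.00777).

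**Figure D2:**
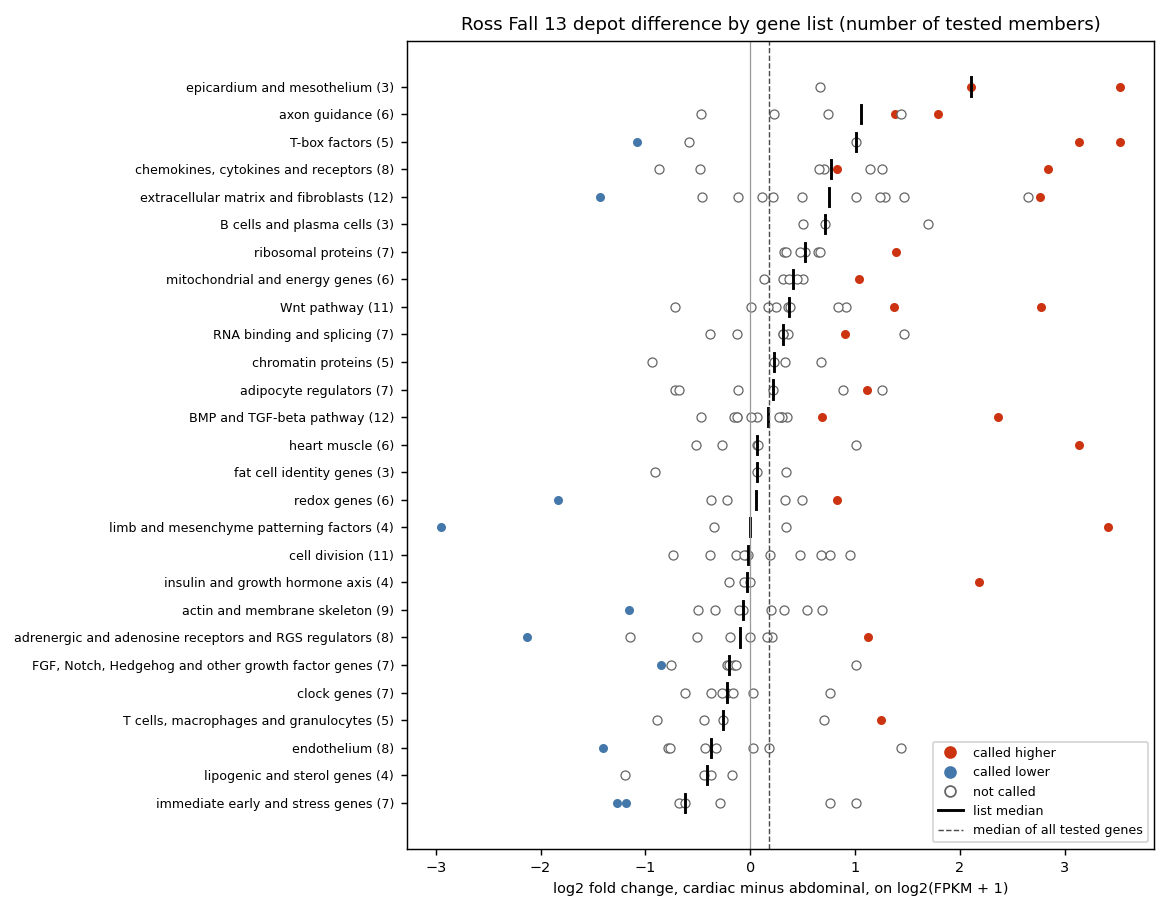
Log2 fold change, cardiac minus abdominal on log2(FPKM + 1), of the tested members of each gene list with at least 3 of them; red is called higher, blue called lower, open not called, a black bar the list median and the dashed line the median of all tested genes, 0.18. List medians run from -0.63 to 2.11, and most lists hold at most 1 called gene in each direction; HDAC1, listed at 0.001 FPKM in all cardiac libraries, counts in the median of the chromatin proteins but is not drawn.

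Among 12 tested genes of the extracellular matrix and fibroblasts, FBLN1 rose and OPTC fell, and the median was 0.75 against 0.18 over all tested genes. FBLN1, a glycoprotein of elastic fibres and basement membranes, was at 8.67, 2.74, 2.24 and 5.24 FPKM in abdominal and 46.4, 17.6, 69.9 and 23.7 FPKM in cardiac fat. As for FZD1, AXIN2 and CHRDL1, the 2 highest values were in cardiac libraries 1204 and 1206. FBLN1 rose by 2.76 ± 0.47 (SE; limma adjusted p = 0.00366). OPTC, a small leucine-rich proteoglycan, was at 119, 77.2, 42.5 and 42.8 FPKM in abdominal and 37.7, 22.0, 19.2 and 17.6 FPKM in cardiac fat. Its log2 fold change was -1.43 ± 0.37 (SE; limma adjusted p = 0.0271), lost without library 1195, 1196, 1205, 1206 or 1207 (limma adjusted p = 0.056 to 0.080).

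Several matrix genes stayed short of the threshold with wide spread. FBN1, a fibrillin of microfibrils, was at 5.97 to 19.3 FPKM in abdominal fat and at 31, 37.4 and 40.8 FPKM in cardiac libraries 1205 to 1207, but at 527 FPKM in library 1204. The groups did not overlap, and the log2 fold change of 2.65 had an interval of 0.59 to 4.71 (limma adjusted p = 0.083). The gelatinase MMP2, its inhibitor TIMP2, the adhesive glycoprotein THBS1 and the matricellular CTGF differed by 1.28, 1.24, 1.47 and 1.01 (limma adjusted p = 0.055, 0.074, 0.071 and 0.086). THBS1 was called in the fit of all 31 libraries (limma adjusted p = 0.012), and MMP2 under quantile normalization and upper quartile scaling.

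COL18A1, a collagen of vascular and epithelial basement membranes, was among the most reduced genes, with 27.6, 29.6, 46.5 and 62.4 FPKM in abdominal and 10.8, 6.57, 7.16 and 8.61 FPKM in cardiac fat. The abdominal mean was 5.01 times the cardiac mean, and the log2 fold change was -2.14 ± 0.30 (SE; limma adjusted p = 0.000991). SOX18, a transcription factor of endothelial cells, was at 102, 60.4, 95.1 and 55.1 FPKM in abdominal and 39.2, 28.3, 22.5 and 24.3 FPKM in cardiac fat. Every cardiac library was lower, with a log2 fold change of -1.4 ± 0.27 (SE; limma adjusted p = 0.00777). SOX18 was the only one called of 8 endothelial genes, against 3.85% of all tested genes called lower. The median of the 8 was -0.38, against 0.18 over all tested genes. Their summed FPKM was 328 to 619 in abdominal and 256 to 439 in cardiac fat. ERG was called as well under quantile normalization, CLDN5 under upper quartile scaling, and both with scaling to the sum without FABP4. CLDN5 and ERG, an endothelial junction protein and an endothelial transcription factor, differed by -0.79 and -0.76 (limma adjusted p = 0.071 and 0.078), while CDH5, the endothelial cadherin, differed by 0.18 (limma adjusted p = 0.78). PDGFB, a growth factor that endothelial cells secrete, was called at -0.85 ± 0.23 (SE; limma adjusted p = 0.036), a call lost without library 1195, 1196, 1197, 1204, 1205 or 1207 (limma adjusted p = 0.051 to 0.095) and in the fit of all 31 libraries (limma adjusted p = 0.071).

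ADRA1B, the alpha-1B adrenergic receptor, was at 9.92, 11.6, 9.53 and 6.94 FPKM in abdominal and 1.55, 2.55, 0.695 and 1.02 FPKM in cardiac fat. The abdominal mean was 6.54 times the cardiac mean, and the log2 fold change was -2.13 ± 0.29 (SE; limma adjusted p = 0.000991). RGS19, which limits G protein signals, went the other way at 1.13 ± 0.23 (SE; limma adjusted p = 0.0104), from 4.65 to 5.87 FPKM in abdominal and 8.34 to 15.1 FPKM in cardiac fat. The other 6 adrenergic, adenosine receptor and RGS genes tested were not called, and the median of the 8 was -0.10. The nearest to the threshold was ADORA1, the adenosine A1 receptor that restrains lipolysis, at -1.14 (limma adjusted p = 0.055). ADORA1 was called lower under quantile normalization and with scaling to the sum without FABP4. CRHR2, a receptor for urocortins, was called at -1.10 ± 0.27 (SE; limma adjusted p = 0.0221), from 3.61 to 5.86 FPKM in abdominal and 1.32 to 2.91 FPKM in cardiac fat, and lost its call without library 1196, 1197, 1206 or 1207 (limma adjusted p = 0.052 to 0.064).

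CXCL12, the chemokine that holds CXCR4-bearing cells in tissues, was at 3.71, 2.34, 5.17 and 4.53 FPKM in abdominal and 24.0, 26.6, 44.6 and 44.2 FPKM in cardiac fat. The cardiac mean was 8.86 times the abdominal mean, and the log2 fold change was 2.85 ± 0.29 (SE; limma adjusted p = 0.000132). Of 8 chemokine and cytokine genes tested, CXCL12 and LITAF were called, both higher, and the median was 0.77. Over all tested genes, 10.3% were called higher and the median was 0.18. LITAF, a regulator of TNF transcription, was at 4.35 to 7.25 FPKM in abdominal and 9.61 to 12.5 FPKM in cardiac fat (log2 fold change 0.83, limma adjusted p = 0.031), a call lost under each of the 3 other scalings and without library 1195, 1197, 1198, 1204, 1206 or 1207 (limma adjusted p = 0.055 to 0.083). The fit of all 31 libraries did not call it either (limma adjusted p = 0.23).

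LSP1, an actin-binding protein named for lymphocytes, was at 104, 95, 69.3 and 85.5 FPKM in abdominal and 299, 280, 460 and 278 FPKM in cardiac fat (log2 fold change 1.86 ± 0.24, SE; limma adjusted p = 0.000702). Sharing the spread of all 31 libraries ended that call (limma adjusted p = 0.22). LGALS3, the macrophage-rich lectin galectin-3, was at 16.3, 8.02, 13.8 and 9.92 FPKM in abdominal and 29.8, 21.9, 37.5 and 28.5 FPKM in cardiac fat. It rose by 1.24 ± 0.27 (SE; limma adjusted p = 0.0131), but the other 4 genes of T cells, macrophages and granulocytes were not called and PTPRC, the pan-leukocyte marker, differed by -0.44 (limma adjusted p = 0.51). The summed FPKM of those 5 genes was 99.3 to 235 in abdominal and 126 to 215 in cardiac fat. For 6 B and plasma cell genes it was 14.8 to 32.9 in abdominal and 22.9 to 98.1 in cardiac fat, where IGJ, the joining chain of secreted antibodies, reached 74.6 FPKM in library 1207 and 2.41 to 14.0 in the other three.

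Axon guidance genes had 2 of 6 tested members called, SLIT3 and SEMA3C, both higher, with a median of 1.06. Among all genes tested, 10.3% were called higher and the median was 0.18. SLIT3, a secreted ligand of ROBO receptors, was at 3.32, 1.72, 1.27 and 1.94 FPKM in abdominal and 7.94, 4.84, 8 and 6.61 FPKM in cardiac fat (log2 fold change 1.38 ± 0.28, SE; limma adjusted p = 0.00974). SEMA3C, a secreted semaphorin that guides cells of the cardiac outflow tract, was at 0.256 to 0.586 FPKM in abdominal and at 12.1, 3.43, 2.69 and 2.18 FPKM in cardiac fat. Library 1204 held several times the level of the other cardiac libraries, and the log2 fold change of SEMA3C was 1.79 ± 0.42 (SE; limma adjusted p = 0.0183), lost without library 1195 (limma adjusted p = 0.051). NRP2, a semaphorin receptor, was at 6.78, 7.26, 1.02 and 1.4 FPKM in abdominal and 8.08, 9.15, 18.1 and 8.52 FPKM in cardiac fat, without overlap but short of the threshold (log2 fold change 1.44, limma adjusted p = 0.079). In the fit of all 31 libraries NRP2 was called (limma adjusted p = 0.0098). None of the 9 nerve, ganglion and Schwann cell genes in the table was tested, because they were low. Their summed FPKM was 1.91 to 3.29 in abdominal and 5.36 to 14.2 in cardiac fat, with CHRNA7, a neuronal acetylcholine receptor subunit, at 0.001 in all 8 libraries. Much of the cardiac sum came from SS2, a somatostatin precursor, at 6.13, 2.43, 0.507 and 11.3 FPKM.

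Of the regulators of fat cells, 1 of 7 tested was called. NR1H3, the liver X receptor alpha that senses oxysterols, was at 29.9, 28.4, 32.4 and 24.2 FPKM in abdominal and 64.9, 56.3, 59.6 and 71.4 FPKM in cardiac fat. Both depots were tight and far apart, with a log2 fold change of 1.11 ± 0.19 (SE; limma adjusted p = 0.00366); in the fit that shared the spread of all 31 libraries the call was lost (limma adjusted p = 0.34). EBF2, a factor of preadipocytes, differed by 0.89 (limma adjusted p = 0.10). The 4 lipogenic and sterol genes all had negative fold changes, with a median of -0.41. Over all tested genes, 239 of 390 were positive and the median was 0.18. Limma called none of the 4. An unadjusted limma p below 0.05 was found in 1, a share that was not counted over all tested genes and so is no evidence about the list.

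IGFBP4, a binding protein that holds insulin-like growth factors, was at 66.6, 42.9, 32.4 and 69.9 FPKM in abdominal and 214, 175, 372 and 211 FPKM in cardiac fat. The log2 fold change was 2.18 ± 0.32 (SE; limma adjusted p = 0.00155), while IGF2, one of its ligands, differed by -0.20 (limma adjusted p = 0.71). DPYSL3, a cytoskeletal protein of growing neurites and migrating cells, was at 11.5, 12.0, 7.89 and 10.7 FPKM in abdominal and 45.7, 34.4, 83.9 and 43.2 FPKM in cardiac fat (log2 fold change 2.13 ± 0.29, SE; limma adjusted p = 0.000991). In both genes library 1206 was the highest of the cardiac and library 1197 the lowest of the abdominal libraries. S100A6, a calcium-binding protein of fibroblasts and epithelia, rose by 1.32 ± 0.27 (SE; limma adjusted p = 0.0104), from 316 to 557 FPKM in abdominal and 695 to 1458 FPKM in cardiac fat.

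P4HB, a disulfide isomerase that is also a subunit of collagen prolyl hydroxylase, was at 228, 294, 171 and 181 FPKM in abdominal and 43.8, 198, 44.9 and 31.2 FPKM in cardiac fat. Library 1205 lay within the abdominal range, and the call at -1.83 ± 0.51 (SE; limma adjusted p = 0.037) held without library 1205 but was lost without any other (limma adjusted p = 0.074 to 0.11) and in the fit of all 31 libraries (limma adjusted p = 0.080). GLDC, which cleaves glycine in mitochondria, was at 21.2, 16.9, 35.8 and 15.2 FPKM in abdominal and 12.8, 6.19, 5.64 and 6.11 FPKM in cardiac fat (log2 fold change -1.42 ± 0.33, SE; limma adjusted p = 0.0181), with the call lost without library 1207 (limma adjusted p = 0.061). Of 7 immediate early and stress genes EGR1 and IFRD1 fell, against 3.85% of all tested genes called lower. The median was -0.63, against 0.18 over all tested genes. EGR1, an immediate early transcription factor, was at 132, 94.1, 56.3 and 60.4 FPKM in abdominal and 42.5, 37.2, 29.6 and 31.9 FPKM in cardiac fat. The groups of EGR1 did not overlap (log2 fold change -1.18 ± 0.29, SE; limma adjusted p = 0.0226), and the call was lost without library 1195, 1196, 1206 or 1207 (limma adjusted p = 0.051 to 0.064). IFRD1, a stress-inducible co-regulator of transcription, differed by -1.27 ± 0.35 (SE; limma adjusted p = 0.035), from 86.8 to 129.7 FPKM in abdominal and 22.2 to 76.8 FPKM in cardiac fat. Its call was lost without any library except 1204 and 1205 (limma adjusted p = 0.057 to 0.090). ACTN1, the actin cross-linker of focal adhesions, was called at -1.16 ± 0.31 (SE; limma adjusted p = 0.031) and lost its call without any library except 1197 and 1206 (limma adjusted p = 0.058 to 0.087). It was the only one called of 9 actin and membrane skeleton genes.

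HDAC1, a histone deacetylase present in most cell types, was at 8.58, 8.94, 11.9 and 7.11 FPKM in abdominal fat and was listed at 0.001 in all 4 cardiac libraries. The same value stood in all 4 cardiac libraries of Ross Fall 12 but not in Illinois birds, whose cardiac libraries ranged from 0.001 to 12.3 FPKM. The value 0.001 also appeared in single libraries for genes at high level in the rest of their group, such as SAP18, at 327, 355 and 200 FPKM in 3 cardiac libraries and 0.001 in library 1206. In all, 21 genes had that value in at least 1 library and at least 5 FPKM in another of the same depot, so 0.001 is not read here as absence and no fold change is given for HDAC1. It stays among the 15 genes called lower, a call that rests on those values: with 0.001 taken as missing HDAC1 could not be tested.

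RPL35, a protein of the large ribosomal subunit, was at 674, 998, 799 and 1128 FPKM in abdominal and 1991, 1955, 2962 and 2494 FPKM in cardiac fat. The log2 fold change was 1.39 ± 0.22 (SE; limma adjusted p = 0.00288). The other 6 ribosomal protein genes tested were not called, and the median of the 7 was 0.53. All 7 fold changes were positive, against 239 of 390 and a median of 0.18 over all tested genes. An unadjusted limma p below 0.05 was found in 5 of the 7, a share that was not counted over all tested genes. Without that count the 5 are no evidence about the list. All 7 were also positive under upper quartile scaling and scaling to the sum without FABP4, with medians of 0.45 and 0.26. Under quantile normalization 4 of 7 were positive and the median was 0.08. ATP5A1, a catalytic-core subunit of ATP synthase, was called at 1.03 (limma adjusted p = 0.037) among 6 mitochondrial and energy genes, but not under any of the 3 other scalings and not without library 1195, 1197, 1198, 1205, 1206 or 1207 (limma adjusted p = 0.059 to 0.091) or in the fit of all 31 libraries (limma adjusted p = 0.068). PARK7, an antioxidant protein, was at 48.6 to 55.3 FPKM in abdominal and 84.2 to 108 FPKM in cardiac fat (log2 fold change 0.83, limma adjusted p = 0.0161); scaling to the sum without FABP4 ended the call. QKI, an RNA-binding regulator of splicing, was called at 0.90 (limma adjusted p = 0.0265) and lost its call under each of the 3 other scalings and without library 1195, 1197, 1204, 1205 or 1207 (limma adjusted p = 0.056 to 0.074). Of the 7 clock and 11 cell division genes tested by limma none was called, and the medians were -0.22 and -0.02, against 0.18 over all tested genes. An unadjusted limma p below 0.05 was found in 2 and 3 of them, again without a count over all tested genes, so these are no evidence about the lists.

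The depot difference of Ross Fall 13 was then set against that of the same line in Fall 12 and of Illinois birds in the same trial, in a fit over all 31 libraries. Each of these comparisons has its own abdominal and cardiac libraries. Of the 40 genes higher here, 34 had a positive fold change in Fall 12 and 29 in Illinois birds, against 53.0% and 48.9% of the 440 genes in that fit, and 12 and 14 of them were called in the same direction. All but 1 of the 15 lower genes had a negative fold change in each of the other two comparisons, against 47% and 51.1% of all genes. The 15 include HDAC1, listed at 0.001 FPKM in every cardiac library of both Ross trials, a value not read here as absence. In each, 5 of those 15 were called. In Fall 12, 8.86% of all genes were called higher and 5.00% lower, and in Illinois birds 7.5% and 10.7%. Called the same way in all these comparisons were TBX20, FZD1, ID4, IGFBP4 and SLIT3, which were higher, and ADRA1B, which was lower. For ADRA1B the log2 fold changes were -2.13 in Ross Fall 13, -1.84 in Ross Fall 12 and -2.08 in Illinois birds, and for TBX20 they were 3.13, 3.68 and 3.77.

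**Figure D3:**
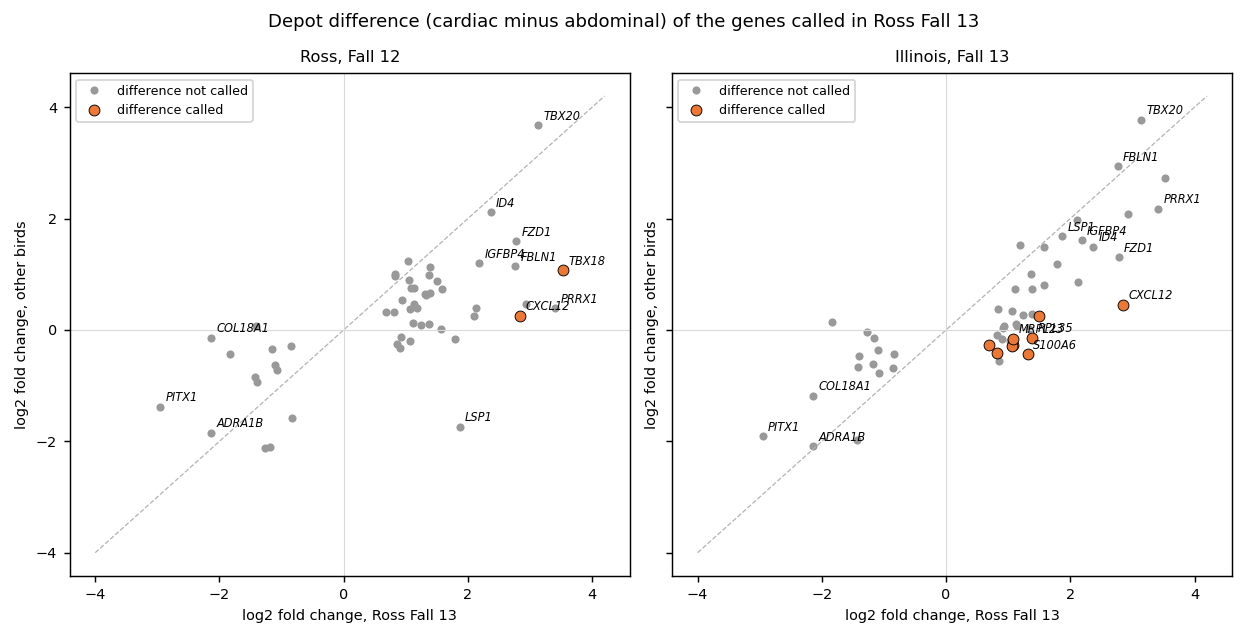
Log2 fold change, cardiac minus abdominal on log2(FPKM + 1), of 54 of the 55 genes called in Ross Fall 13 (all but HDAC1), horizontal axis, against that in Ross Fall 12 (left) and in Illinois Fall 13 birds (right); orange points are genes whose depot difference itself differed between the 2 sets of birds, and the dashed line marks equal values. TBX20 lies above the line on both sides, CXCL12 lies near 0 on both vertical axes at 0.25 and 0.45, and LSP1 is at -1.74 in Fall 12, where a cardiac library lists it at 0.001.

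The depot difference itself differed from that of Fall 12 in 4 of 440 genes (0.909%): CXCL12, TBX18 and THBS1 were higher by 2.59, 2.46 and 2.36 and CHRNA3 lower by 2.60 on the log2 scale (limma adjusted p = 0.013, 0.045, 0.042 and 0.036). For the 3 higher genes, the abdominal libraries of Ross Fall 13 held the lowest values of the series. CXCL12 was at 2.34 to 5.17 FPKM in those, and at 30.04 to 79.3 FPKM in Fall 12 abdominal, 17.6 to 50.3 FPKM in Illinois abdominal and 24.0 to 84.9 FPKM in all cardiac libraries. TBX18 was at 0.182 to 0.444 FPKM in them, at 0.979 to 8.99 FPKM in Fall 12 abdominal and at 0.536 to 8.21 FPKM in Illinois abdominal fat, while the cardiac libraries of the 3 sets overlapped at 7.77 to 27.9 FPKM. THBS1 was at 2.18 to 5.10 FPKM in abdominal and 5.29 to 32.4 FPKM in cardiac fat of Ross Fall 13, against 43.8 to 72.0 and 23.3 to 47.4 FPKM in Fall 12. CHRNA3, a ganglionic acetylcholine receptor subunit, stayed below 1 FPKM in both depots here but was at 2.30 to 10.9 FPKM in Fall 12 cardiac fat, where the nerve genes summed to 33.0 to 117 FPKM. All 4 calls were lost when any one of abdominal library 1196 and Fall 12 abdominal libraries 1199 and 1200 was left out. Of 26 alternative fits, CXCL12 was called in 23, THBS1 and CHRNA3 in 13 each and TBX18 in 11. Over these fits, the differences stayed at 2.21 to 2.86 for CXCL12, 2.20 to 3.93 for TBX18, 1.83 to 2.67 for THBS1 and -4.76 to -2.28 for CHRNA3.

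Against Illinois birds, 14 of 440 genes differed (3.18%), all with a higher fold change in Ross birds, and CXCL12 was again the largest, at 2.39 (limma adjusted p = 0.0032). It was the only one of the 14 called in every alternative fit, although Illinois libraries were not left out singly in any of these fits. S100A6, NRP2, CAV1 and RPL35 followed at 1.75, 1.72, 1.58 and 1.53 (limma adjusted p = 0.035, 0.035, 0.0052 and 0.010), called in 9, 12, 16 and 16 of 18 alternative fits. Of the 3 other scalings, CAV1 and RPL35 kept their call under upper quartile scaling only, and S100A6 and NRP2 under none. CAV1 was at 401 to 578 FPKM in Illinois abdominal and 107 to 234 FPKM in Illinois cardiac fat, but at 147 to 296 and 181 to 345 FPKM in the Ross depots of the same trial. RPL35 was at 1321 to 3398 and 1178 to 2432 FPKM in the Illinois depots, so that in this trial Ross abdominal fat alone, at 674 to 1128 FPKM, lay below the rest. PARK7 even had opposite signs, 0.83 in Ross and -0.42 in Illinois birds, and both were called. The split of the called genes depended on scaling. Quantile normalization gave 7 higher and 3 lower, upper quartile scaling 9 and 3, and scaling to the sum without FABP4 1 and 9. None of the 14 changed sign in any fit, but only 6, 9 and 1 of them stayed called under these scalings. The genes called lower there were other genes. FABP4 itself differed by 1.98 between the lines' depot effects (limma adjusted p = 0.052), with a fold change of -1.64 in Illinois birds.

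**Figure D4:**
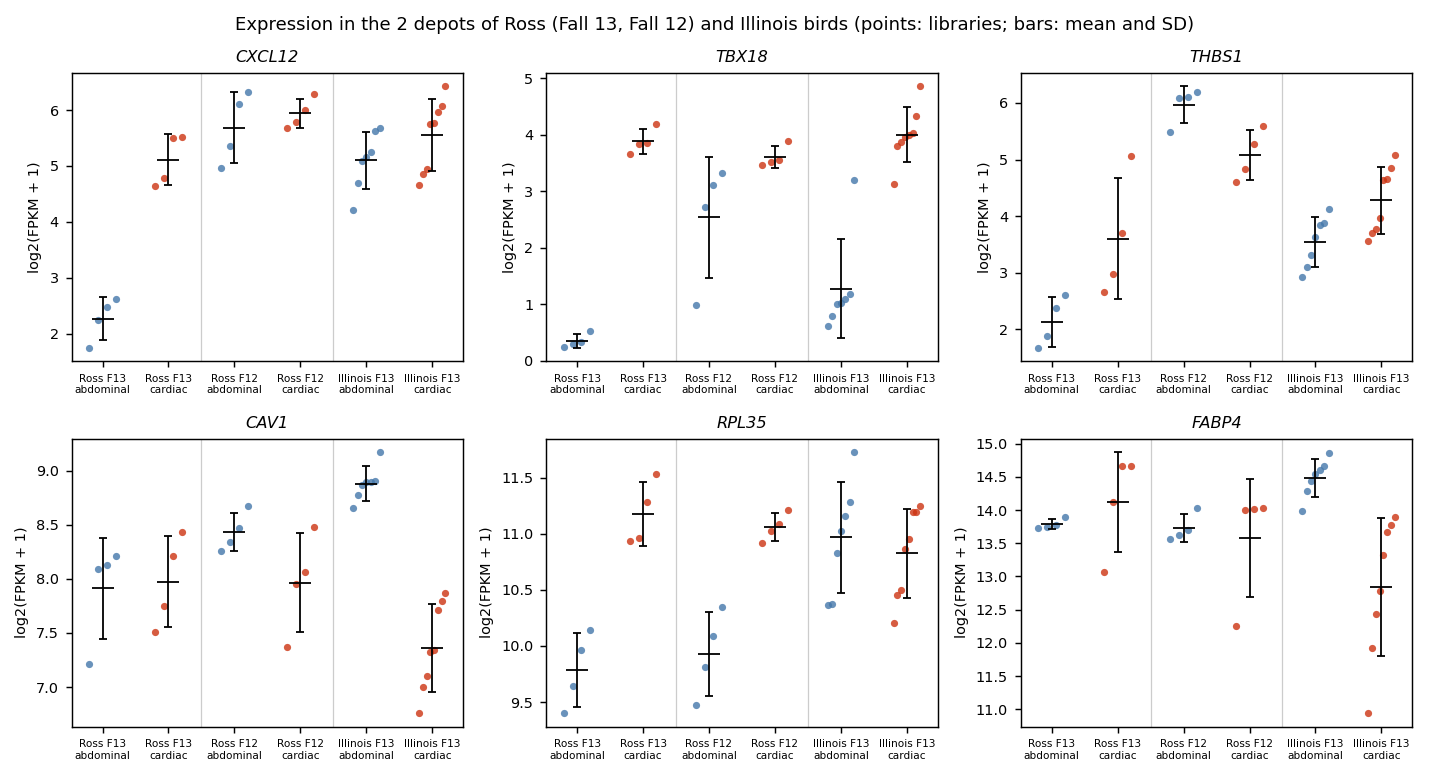
Expression as log2(FPKM + 1) of 6 genes in the abdominal (blue) and cardiac (red) libraries of Ross Fall 13, Ross Fall 12 and Illinois Fall 13 birds; points are libraries in order of value, and black bars give the mean and SD. CXCL12, TBX18 and THBS1 are lowest in Ross Fall 13 abdominal fat, at up to 5.17, 0.444 and 5.10 FPKM, RPL35 is low in abdominal fat of both Ross trials, and CAV1 separates the depots of Illinois birds only.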

How the data were processed

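Bowtie, TopHat and Cufflinks were used, per the submitters' processing notes. The authors' deposited table gives 1 value per gene and library, taken here as FPKM, the unit Cufflinks writes; the header does not name the unit. Tool versions, build, annotation and the strand setting were not given in the sources used here, so reads of overlapping or near-identical genes may be split in ways that cannot be checked. Libraries were stranded and made from polyadenylated RNA, per the labels' protocols. Of 567 lines, 1 was incomplete and 2 were exact repeats, which left 564 genes. The table is therefore part of a transcriptome, and its FPKM sums are not a depth. All 31 value columns matched a sample. Of the gene identifiers, 562 were found in RefSeq's GRCg7b annotation, 541 under the same symbol and 21 under another. Of the genes named here, LSP1 stood there as LSP1P1, ATP5A1 as ATP5F1AZ, CTGF as CCN2, IGJ as JCHAIN and SS2 as SST7. Their descriptions follow the symbols of the authors' table. The build behind the table is not known, so positions are left out.

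Values were analysed as log2(FPKM + 1), with a pseudocount of 1, in limma 3.58.1 (R 4.3.3, statmod 1.5.0) using robust moderation and a mean-variance trend, two-sided, adjusted by Benjamini-Hochberg over all genes tested. The depot fit used the 8 Ross Fall 13 libraries and the genes that reached 1 FPKM in 4 or more of them. Differences of depot effects came from the means of 6 groups over all 31 libraries. The exact permutation test was run in scipy 1.17.1. The code was tested on simulated data. Alternatives changed the pseudocount, the filter, the scaling, the moderation, the treatment of the value 0.001 and the libraries included. Leaving out each Fall 12 library was added after seeing the data. Illinois libraries were not left out singly.

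The text names the 12 largest called changes each way whose higher depot averaged 5 FPKM or more, up to 4 called members of each list described, PPARG, FABP4, CASQ2 and MYH7B, and the 4 largest each way of each difference of depot effects. Other genes were named after their values were seen. The comparison, the lists and the rule were chosen with earlier results of these data known.

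Relative depth was estimated from 372 values below 0.5 FPKM in 83 genes, of which 76.3% came within 0.05 of a whole number of fragments. The depths were chosen to bring these same values near whole numbers, so that share is no check of the depths. FPKM carries no interval for counting error, so the precision is that of the spread over 4 libraries.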

Additional observations from a re-analysis of the deposited data

Results flagged for a closer look

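Among 92 groups of 4 libraries looked at, 1 library stood far from the other three in 8, and chance flags about 1 in 20 such groups. In abdominal fat this was library 1198, with CAV1 at 147.4 FPKM, below the others, and TBX20 at 0.4708 FPKM, above them. In cardiac fat library 1206 stood above the other three in LSP1 at 459.7, NRP2 at 18.07, PRRX1 at 162.1 and TBX20 at 11.95 FPKM. GLDC was high in cardiac library 1204 at 12.81 FPKM, and RGS19 was low in cardiac library 1207 at 8.341 FPKM.

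The depot effect of 4 genes differed from that of Ross Fall 12 in the limma test of the difference, by 2.592 for CXCL12, 2.458 for TBX18, 2.358 for THBS1 and -2.604 for CHRNA3 on the log2 scale. That of 14 genes differed from Illinois birds. The differences were 2.393 for CXCL12, 1.749 for S100A6, 1.725 for NRP2, 1.583 for CAV1 and 1.531 for RPL35. For PCBD2, NR2C1, FECH, MRPL23, PARK7 and LMBR1 they were 1.348, 1.346, 1.252, 1.246, 1.244 and 1.213. For FUT11, CSNK1E and SMAD3 they were 1.164, 0.9872 and 0.9527. PCBD2 binds a pterin cofactor and FECH completes haem synthesis, while MRPL23 belongs to the mitochondrial ribosome.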

How the results depend on the processing

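Under the alternatives run, 40 genes called higher became 28 to 53, and 27 of the 55 called genes remained called wherever they were tested. The 15 called lower became 27 with quantile normalization and 27 with scaling to the sum without FABP4, and 6 to 15 when 1 library was left out. When 1 library was left out, the difference in the FABP4 share of summed FPKM ranged from -1.549 percentage points without cardiac library 1205 to 7.37 without 1206. With a replicate block for the header number, limma called 53 higher and 19 lower, and 51 of the 55 remained, without ACTN1, LITAF, SMAD3 and AXIN2. Deviations from the depot means correlated at 0.230, 0.221 and 0.219 for 3 same-numbered pairs and -0.067 for the fourth, which does not show that the numbers pair the libraries, and 2 abdominal libraries correlated better with another number. The 4 genes whose depot effect differed from Fall 12 became 15 with no filter, 2 with quantile normalization, 9 without the libraries with a heart muscle signal, and 0 to 11 when 1 library was left out, with 11 without Fall 12 library 1202 and 10 without 1208. With 0 called, no difference in any gene passed limma's threshold. The 14 that differed from Illinois became 27 at pseudocount 0.1, 28 with a filter at 5 FPKM and 38 with values of 0.001 as missing. They became 7 to 18 when 1 Ross library of the same trial was left out, with 7 without 1198 and 7 without 1206. No Illinois library was left out singly, so how far these calls depend on any one of them was not tested. Apart from the fits with fewer libraries, the cause of the changes in these counts was not tested. Values well below 1 FPKM rest on few fragments, which limits what low levels can show.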
